A study of Mus musculus with 24 samples.

Results

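The Hox cluster genes are the 39 homeobox genes of the Hoxa, Hoxb, Hoxc and Hoxd clusters and Mira, a noncoding RNA gene that lies between Hoxa6 and Hoxa7. They were taken by name from the table of gene expression values, which lists 23119 genes, and gave 40 members, 12 in Hoxa, 10 in Hoxb, 9 in Hoxc and 9 in Hoxd. RNA-seq was performed on JB4/EI7HZ2 cells, a female mouse embryonic stem cell (mESC) line from a JF1 mother and a B6 father, and on an SmcHD1-mutant line (KO) made from it with CRISPR–Cas9. SmcHD1 is a chromatin protein of the inactive X chromosome, and the study asked how that chromosome is folded and replicated. Each genotype was sampled as mESCs, as neurectoderm cells of embryoid bodies at day 7 and day 9 of differentiation, and as neural stem cells (NSCs), with 3 libraries in each of the 8 groups and 24 libraries in all.

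Both genotypes carry a zeocin resistance gene on the JF1 X chromosome and a neomycin resistance gene on the B6 X chromosome, and the mESC medium held serum, LIF, inhibitors of MEK and GSK3 (PD0325901 and CHIR99021), G418 and zeocin. NSCs were kept in FGF2 and EGF and came from a separate differentiation protocol. Each genotype is represented by 1 line, which means that the mutation and other differences between these lines cannot be told apart. The replicates of the mESCs and their differentiation intermediates are described as biologically independent experiments, and p-values measure the spread between them. Whether the NSC libraries came from separate derivations is not stated, so their p-values may measure only the spread within a derivation. In these bulk libraries a smaller share of cells that express a gene and less RNA per cell cannot be told apart.

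Hox genes encode transcription factors that give cells their position along the head-to-tail axis. Within a cluster the genes lie in the order in which they are switched on in the embryo, from paralogue 1 at the anterior end, used in the hindbrain, to paralogue 13 at the posterior end, used in the tail and limb buds. In mESCs the clusters are held silent by Polycomb proteins, and retinoic acid, WNT, FGF and the CDX factors open them during neural and axial differentiation. Here members 1 to 4 are called anterior (12 genes), 5 to 8 central (11) and 9 to 13 posterior (16), and Mira is kept apart. In the mm9 genome the Hoxa members lie on chromosome 6, and the others span chr11:96055675-96229567 (Hoxb), chr15:102751562-102867283 (Hoxc) and chr2:74506367-74603199 (Hoxd).

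Values are FPKM, in which fragments are divided by transcript length and by the number mapped in the library, so levels may be compared between genes. Relative read numbers of the libraries ran from 0.811 to 1.15, and for the 31 members whose step could be found 1 read was worth 0.0707 to 0.384 FPKM, so values under about 1 FPKM rest on few reads. Smchd1 itself was 1.82 to 4.4 FPKM over the KO libraries and 13 to 26.4 over the WT libraries, and was called lower at all 4 stages. Genes were tested with limma on log2(FPKM + 1) over 12105 genes with a mean of at least 1 FPKM, and those with an adjusted p under 0.05 are the calls given here. Of the members 23 passed this filter on the mean, 10 of 12 anterior, 5 of 11 central and 7 of 16 posterior genes and Mira, and all 40 entered the fit without the filter. The mean filter passes a gene through the group where it is high, so counts over these 23 are read beside those over all 40.

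The clusters changed their pattern along the differentiation course. In WT mESCs the members were low, with sums over the 40 genes from 34.2 to 71.4 FPKM, and the 16 posterior genes held most of it (46.2, 19.2 and 27.3 FPKM in replicates 1, 2 and 3). The highest member of each cluster was Mira (5.58 ± 1.53 FPKM, mean ± SD, n = 3), Hoxb9 (1.72), Hoxc13 (6.07) and Hoxd9 (1.93). At day 7 and day 9 the highest genes were Hoxa2, which patterns the second hindbrain segment and the second branchial arch, and Hoxb2, its paralogue. Hoxb2 was listed at 0 in the 3 WT mESC libraries and was 50.7, 66.3 and 76.3 FPKM in the day 7 libraries, 85.7, 91.3 and 83.6 in those of day 9, and 10.8, 8.89 and 12.7 in NSCs. Hoxa2 was 0.389, 0 and 0 in WT mESCs, 31.1, 30.6 and 31.7 by day 7, 57.2, 36.8 and 40.6 by day 9, and 19.7, 22 and 24.5 in NSCs. No library of these differentiated groups overlapped the mESC libraries for either gene.

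Hoxc and Hoxd genes stayed far lower than Hoxa2 and Hoxb2 after differentiation, except for Hoxd genes in KO NSCs. In WT cells their highest members were Hoxc4 (1.23 FPKM) and Hoxd3 (2.73) by day 7 and Hoxc6 (2.92) and Hoxd3 (5.73) by day 9, as group means, while in WT NSCs all Hoxc members were listed at 0 and Hoxd8 was highest at 0.0518. In KO mESCs the same members led as in WT mESCs, namely Mira (21.2), Hoxb9 (2.11), Hoxc13 (6.79) and Hoxd9 (2.76). Hoxa2 (24 and 71.3 FPKM by day 7 and day 9) and Hoxb2 (33.1 and 55.9) led KO cells too, and their highest Hoxc and Hoxd members were Hoxc4 (0.287) and Hoxd13 (0.255) by day 7 and Hoxc4 (0.446) and Hoxd8 (0.265) by day 9. In KO NSCs the leading members were Hoxa5 (10.6), Hoxb2 (2.23), Hoxc4 (0.364) and Hoxd8 (10), so the Hoxa cluster was led by Hoxa5 in KO and by Hoxa2 in WT NSCs.

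**Figure D1:**
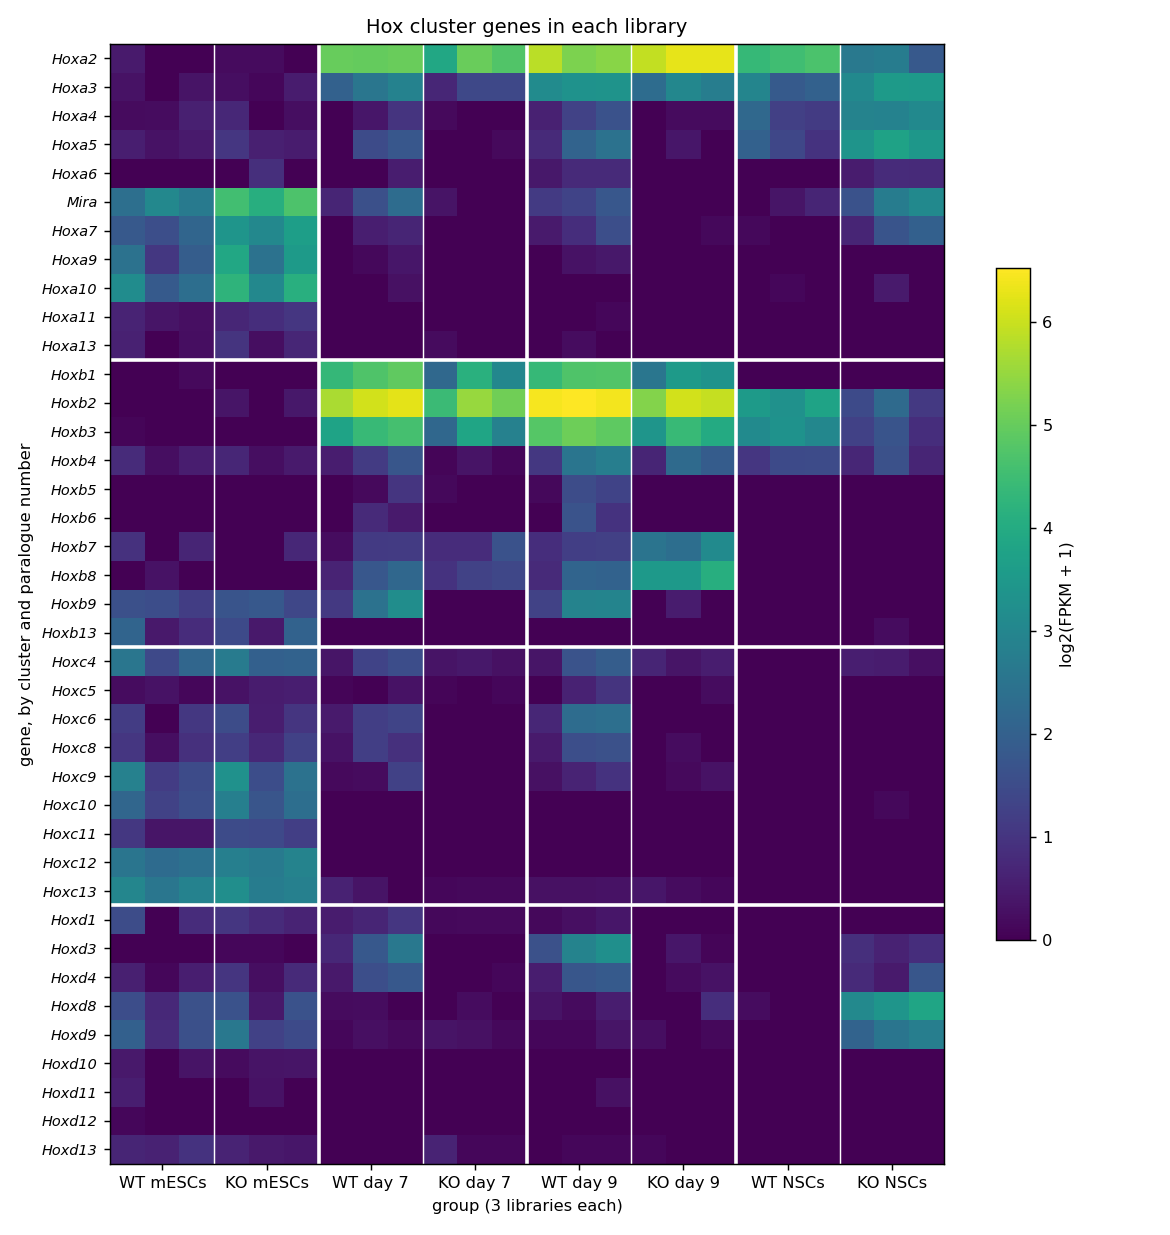
Expression of 39 of the 40 Hox cluster genes (rows, by cluster and paralogue number) in each of the 24 libraries (columns, 3 per group), as log2(FPKM + 1) on a colour scale from dark (0) to bright. The rows of Hoxc12, Hoxc13 and Hoxa10 reach their own brightest values in mESCs, and those of Hoxa2 and Hoxb2 at day 7 and day 9. Hoxd8 and Hoxd9 are bright again in KO NSCs (means 10 and 4.66 FPKM).

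Against WT mESCs, 7 of 23 tested members were higher and 10 lower at day 7 (29.1% and 30.2% of all tested genes), 11 and 9 at day 9 (36.4% and 35.1%), and 6 and 11 in NSCs (36.9% and 38.3%). At day 9, 8 of 10 anterior members were higher and 0 lower, while 6 of 7 posterior members were lower and Hoxb9 was higher. In NSCs all 7 tested posterior members were lower than in mESCs, and 5 of 10 anterior members (Hoxa2, Hoxa3, Hoxa4, Hoxb2, Hoxb3) were higher. Of the tested posterior members Hoxa9, Hoxa10, Hoxc9, Hoxc12 and Hoxc13 had passed the filter mainly through their mESC levels. Over all 40 members, without the filter, 8 were higher and 16 lower at day 7 (22.7% and 24.2% of all genes), 16 and 15 at day 9 (29.6% and 28.6%), and 6 and 19 in NSCs (28.1% and 32.2%). In that fit 9 of 12 anterior members were higher and 0 lower at day 9, and 1 of 16 posterior members was higher and 12 lower. In NSCs 5 anterior members were higher and 2 lower, and 13 posterior members were lower. The largest rises were those of Hoxb2 and Hoxa2 at day 7 (differences on the log2(FPKM + 1) scale of 6.01 ± 0.26 and 4.85 ± 0.24, SE), at day 9 (6.46 and 5.33) and in NSCs (3.55 and 4.36). The limma adjusted p was at most 7.27e-11 for these 6. The largest falls were those of Hoxc13 and Hoxc12 at day 7 (-2.48 and -2.41), Hoxc13 and Hoxa10 at day 9 (-2.50 and -2.46) and the same pair in NSCs (-2.81 and -2.42).

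Hoxc13 and Hoxc12, used in the tail, hair and nails, were 6.97, 4.87 and 6.37 FPKM and 4.79, 3.84 and 4.3 FPKM in WT mESCs. After differentiation Hoxc12 was listed at 0 in all 18 libraries, and Hoxc13 did not pass 0.55 FPKM. Over all 9 Hoxc members the WT sums ran from 13.8 to 30.1 FPKM in mESCs and were 0 in the 3 WT NSC libraries. Hoxc9 was 6.33, 1.22 and 1.82 FPKM in WT mESCs and 0.116, 0.134 and 1.41 at WT day 7, where replicate 3 reached above mESC replicate 2. Hoxc10 was 3.48, 1.44 and 1.98 FPKM in WT and 6.06, 2.28 and 4.13 in KO mESCs and at most 0.109 in the differentiated libraries. Hoxb13, the most posterior Hoxb gene, was 3.28, 0.369 and 0.764 in WT and 1.75, 0.37 and 3.18 in KO mESCs and at most 0.168 elsewhere. Hoxa11, Hoxa13, Hoxc5 and Hoxd10 to Hoxd13 did not pass 1.04 FPKM in any library, and Hoxd1 did not pass 1.85.

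In KO cells the same comparisons gave 7 members higher and 11 lower at day 7 against KO mESCs (29.5% and 31.8% of all tested genes), 8 and 12 at day 9 (35.7% and 35.6%), and 8 and 9 in NSCs (37.7% and 38.2%). Over all 40 members, without the filter, 7 were higher and 21 lower at day 7 (22.5% and 25% of all genes), 8 and 23 at day 9 (28.4% and 28.1%), and 9 and 20 in NSCs (29.4% and 30.9%). Hoxb2 and Hoxa2 again rose most at day 7 (4.76 ± 0.26 and 4.44 ± 0.24) and day 9 (5.53 and 6.04), but in NSCs the largest rises were those of Hoxa3 (3.10 ± 0.27) and Hoxa5 (2.83 ± 0.38). Mira and Hoxa10 fell most at day 7 (-4.33 and -3.81) and day 9 (-4.45 and -3.81), and Hoxa10 and Hoxa9 in NSCs (-3.65 and -3.31). The adjusted p of these 12 was at most 8.84e-07. Sums of FPKM over all genes were lower after differentiation (group medians of 769704 in WT mESCs and 552341 in WT NSCs), and scaling every library to the same sum put the median difference of all genes in these 6 stage comparisons at 0.14 to 0.43 log2 units instead of -0.04 to 0.01. The share of higher genes among all calls then was 63.3% to 69.1% instead of 48.1% to 50.9%, and each of the changes named here is larger than those medians.

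**Figure D2:**
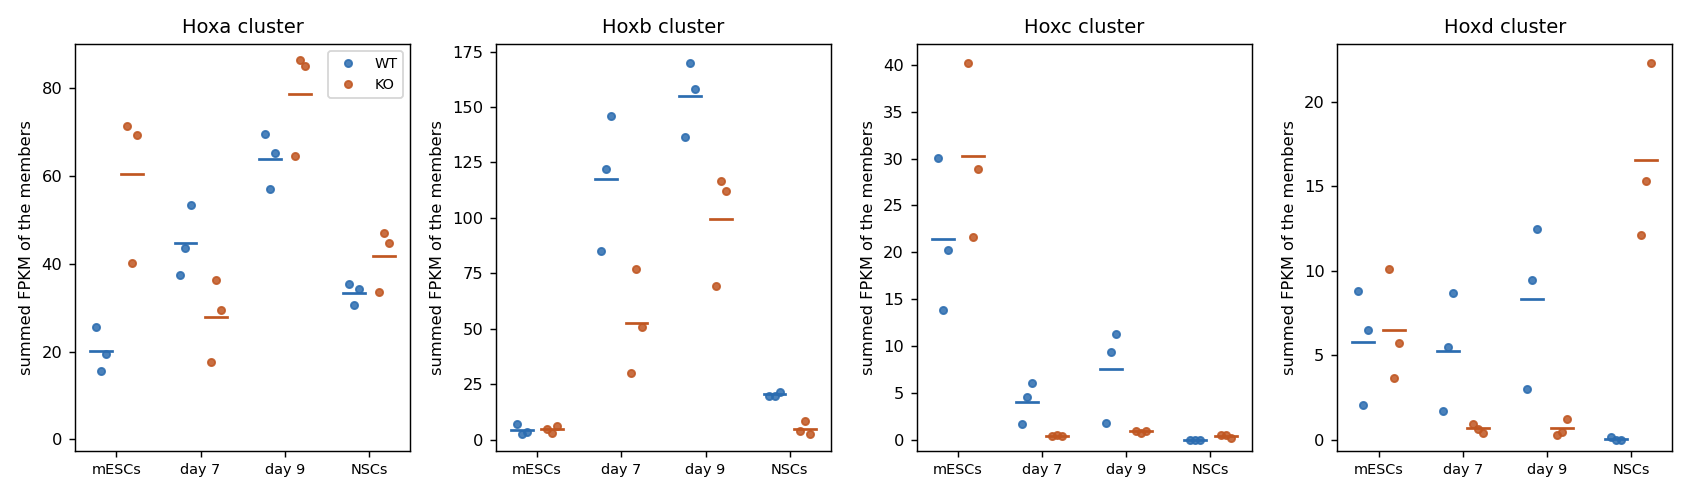
Summed FPKM of the members of each cluster (panels) in each library (points, with the group mean as a bar) at the 4 stages, WT in blue and KO in orange. Hoxb sums are highest at day 7 and day 9 in both genotypes, Hoxc sums lie near 0 after mESCs in KO cells and at 0 in WT NSCs, and Hoxd sums in NSCs are 12.1 to 22.3 FPKM in KO and at most 0.155 in WT cells.

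KO and WT mESCs differed in a run of neighbouring Hoxa genes. Mira, Hoxa7, Hoxa9 and Hoxa10 were higher in KO mESCs, 4 of 23 tested members against 0.116% of all tested genes, and no member was called lower by limma (0.413% of all), with 5 members at an unadjusted p under 0.05. Mira is described as an RNA that brings the trithorax protein MLL1 to Hoxa6 and Hoxa7 in mESCs, and Hoxa7, Hoxa9 and Hoxa10 pattern the trunk. Mira was 4.19, 7.22 and 5.34 FPKM in WT and 22.5, 16.2 and 24.9 in KO mESCs (difference 1.76 ± 0.34 on the log2(FPKM + 1) scale, SE, limma adjusted p 0.0192). Hoxa7 was 2.52, 1.99 and 3.4 FPKM in WT and 9.51, 7.29 and 11.7 in KO mESCs (1.53 ± 0.28, adjusted p 0.0123). For both genes the lowest KO library lay above the highest WT library.

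Hoxa9 was 4.54, 1.09 and 2.77 FPKM in WT and 14, 4.47 and 10.8 in KO mESCs (1.49 ± 0.29, adjusted p 0.0190). Hoxa10 was 8.1, 2.59 and 4.13 in WT and 18.1, 7.29 and 16.4 in KO mESCs (1.34 ± 0.27, adjusted p 0.0239). Here the groups overlapped, but replicate 2 was the lowest library in both genotypes, and in each same-numbered pair KO was higher. Hoxa2 to Hoxa5, nearer the other end of the cluster, were not called in mESCs, and no tested Hoxb, Hoxc or Hoxd member was. Without the filter 7 of 40 members were higher and 0 lower (0.27% and 0.633% of 18156 genes). Hoxa11 (0.43 ± 0.08), Hoxc11 (0.79 ± 0.12) and Hoxc12 (0.41 ± 0.09) were the added ones. Hoxc11 was 1.08, 0.287 and 0.298 FPKM in WT and 1.82, 1.73 and 1.32 in KO mESCs. The median difference over the 40 members was 0.20 and over all these genes 0.00.

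Fitting the mESC libraries alone, or a pseudocount of 0.1, left 0 of the 4, and so did leaving out KO replicate 3 (adjusted p 0.103 for Hoxa7, 0.128 for Mira, 0.132 for Hoxa9 and 0.178 for Hoxa10). Leaving out KO replicate 1 kept Hoxa7 alone (0.0621 for Mira, 0.104 for Hoxa9 and 0.118 for Hoxa10), as did leaving out WT replicate 3 (0.0638, 0.0531 and 0.0849), while Mira was lost without WT replicate 1 (0.0969) and Hoxa9 and Hoxa10 without WT replicate 2 (0.0596 and 0.0783). Of the pluripotency markers 0 of 6 were called by limma (0 at an unadjusted p under 0.05), with sums of 2473 to 2897 FPKM in WT and 2482 to 2979 in KO mESCs. Of the posterior and retinoid regulators of Hox genes only Cdx2 was called (1 higher, 0 lower of 15 tested), at 7.04 ± 1.65 FPKM in WT and 19.2 ± 6.7 in KO mESCs (1.30 ± 0.20, adjusted p 0.00149). Nkx1-2, of the caudal neural plate, had the next largest difference (1.00 ± 0.35, adjusted p 0.346). CDX2 is a factor of the trophectoderm and of the posterior embryo that binds Hox clusters, and its part in the Hoxa difference was not tested.

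The windows before the starts of some of the genes that carry these differences are shown so that their CpG content can be read, since CpG islands are where Polycomb and MLL proteins are bound. They are the 250 bases before the RefSeq start (GRCm38.p6 annotation), each located once in mm9 by exact match, written 5′ to 3′ on the gene's strand with every CG in capitals. Hoxa7 (chr6:52168573-52168822, minus strand) was higher in KO mESCs and KO NSCs, and Mira (chr6:52165288-52165537, minus strand) beside it.
Hoxa7: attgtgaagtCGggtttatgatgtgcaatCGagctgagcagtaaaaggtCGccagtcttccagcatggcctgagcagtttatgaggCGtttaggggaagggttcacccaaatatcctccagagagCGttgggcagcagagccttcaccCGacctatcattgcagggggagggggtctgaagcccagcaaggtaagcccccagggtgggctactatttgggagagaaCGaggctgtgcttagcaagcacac
Mira: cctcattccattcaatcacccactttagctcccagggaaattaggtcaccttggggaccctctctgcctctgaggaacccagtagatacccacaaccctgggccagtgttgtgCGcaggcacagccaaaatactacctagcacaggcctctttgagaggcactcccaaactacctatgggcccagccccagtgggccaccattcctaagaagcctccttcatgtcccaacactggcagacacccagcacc
Hoxd8 (chr2:74542422-74542671, plus strand) and Hoxd9 (chr2:74535570-74535819, plus strand) were higher in KO NSCs, and Hoxb8 (chr11:96142969-96143218, plus strand) at day 9. The measured Hoxd8 entry starts further downstream, at chr2:74543546, so its window does not adjoin it.
Hoxd8: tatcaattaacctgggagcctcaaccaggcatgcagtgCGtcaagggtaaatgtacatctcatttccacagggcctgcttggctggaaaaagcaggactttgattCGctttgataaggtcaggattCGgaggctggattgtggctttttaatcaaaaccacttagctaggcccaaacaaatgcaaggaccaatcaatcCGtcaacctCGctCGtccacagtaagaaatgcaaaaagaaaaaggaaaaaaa
Hoxd9: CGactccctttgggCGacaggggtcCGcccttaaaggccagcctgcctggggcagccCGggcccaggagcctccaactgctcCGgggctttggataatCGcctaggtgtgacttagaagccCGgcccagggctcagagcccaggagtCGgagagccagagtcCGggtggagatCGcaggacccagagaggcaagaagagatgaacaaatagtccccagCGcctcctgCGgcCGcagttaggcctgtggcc
Hoxb8: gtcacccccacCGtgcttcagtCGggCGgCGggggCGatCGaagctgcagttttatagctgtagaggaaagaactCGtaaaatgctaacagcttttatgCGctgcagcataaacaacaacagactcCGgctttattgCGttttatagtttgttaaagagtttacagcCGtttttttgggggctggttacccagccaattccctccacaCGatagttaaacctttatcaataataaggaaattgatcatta
Hoxa2 (chr6:52114831-52115080, minus strand) was lower in KO NSCs and Hoxb1 (chr11:96226822-96227071, plus strand) lower in KO cells at day 7 and day 9.
Hoxa2: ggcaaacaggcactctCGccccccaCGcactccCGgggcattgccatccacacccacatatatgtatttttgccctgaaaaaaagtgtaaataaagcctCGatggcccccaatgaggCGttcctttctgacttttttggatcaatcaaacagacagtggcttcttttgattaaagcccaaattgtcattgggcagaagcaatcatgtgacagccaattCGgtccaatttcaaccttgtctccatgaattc
Hoxb1: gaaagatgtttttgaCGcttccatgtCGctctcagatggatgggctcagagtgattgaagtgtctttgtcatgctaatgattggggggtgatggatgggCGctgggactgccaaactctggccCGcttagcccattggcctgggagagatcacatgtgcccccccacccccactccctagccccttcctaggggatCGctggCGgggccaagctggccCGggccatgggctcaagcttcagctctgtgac
The window of Mira held 1 CG, that of Hoxa2 6, Hoxd8 6, Hoxa7 7, Hoxb1 7, Hoxb8 12 and Hoxd9 13. Other called members, not shown, held 28 (Hoxa5), 20 and 7 (Hoxa10), 18 (Hoxa3), 12 (Hoxd3) and 3 (Hoxa9). The called genes Hoxa4, Hoxb2, Hoxb3, Hoxb7 and Hoxb9 had no window. RefSeq windows were found for 23 members, 25 windows in all. They held 1 to 35 CGs with a median of 12, and the median of all 32851 windows was 6 with quartiles of 2 and 16.

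Short motifs were counted in the same windows on both strands. TTTATG, a core of the CDX site, occurred in the Hoxa7 and Hoxb8 windows, and in 5 of the 25 member windows (20%) against 10.8% of all windows. TGATNNAT, a core of the joint HOX and PBX site, occurred in the Hoxa2, Hoxb1 and Hoxb8 windows, and in 4 of 25 (16%) against 7.68%. TGACAG, the MEIS core, occurred in 2 of 25, Hoxa2 and Hoxa3 (8%), against 15.9%. A match gives letters in a window, not binding.

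At day 7 the anterior genes Hoxb1, Hoxb2, Hoxb3, Hoxa3 and Hoxd3 were lower in KO cells. Of 23 tested members 7 were lower and 0 higher by limma (11 at an unadjusted p under 0.05), against 2.5% and 1.18% of all tested genes, and 5 of the 7 were anterior. Hoxb1 gives the fourth hindbrain segment its identity, and Hoxb2, Hoxb3 and Hoxa3 act in the segments around it. Hoxb1 was 19.5, 25.7 and 29.5 FPKM in WT and 3.62, 16.7 and 7.19 in KO cells (-1.55 ± 0.31, limma adjusted p 0.00359). Hoxb2 was 50.7, 66.3 and 76.3 in WT and 21, 44.7 and 33.4 in KO cells (-0.99 ± 0.26, adjusted p 0.0359), and Hoxb3 was 12.7, 20 and 23.5 against 3.52, 13.2 and 6.33 (-1.30 ± 0.30, adjusted p 0.0137). For Hoxb1 and Hoxb2 the groups did not overlap, whereas KO replicate 2 reached above WT replicate 1 for Hoxb3. In all 3 genes KO replicate 1 was the lowest and KO replicate 2 the highest KO library.

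Hoxa3 was 3.07, 4.93 and 6.39 FPKM in WT and 0.637, 1.69 and 1.68 in KO day 7 cells (-1.31 ± 0.27, adjusted p 0.00460). Hoxd3, its paralogue in the Hoxd cluster, was 0.649, 2.48 and 5.07 FPKM in WT cells and listed at 0 in the 3 KO libraries, where 3 reads would be 0.212 FPKM (-1.71 ± 0.34, adjusted p 0.00386). Hoxb9, a trunk gene, was 1.12, 4.46 and 8.22 FPKM in WT cells and also listed at 0 in all KO libraries (-2.25 ± 0.39, adjusted p 0.00107). Mira was 0.589, 2.04 and 3.95 FPKM in WT and 0.278, 0 and 0 in KO cells (-1.41 ± 0.34, adjusted p 0.0192). None of these 4 overlapped between the groups, and in each of them WT replicate 1 was the lowest and WT replicate 3 the highest WT library.

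Hoxa2 was not called at day 7, with 31.1, 30.6 and 31.7 FPKM in WT and 14, 32 and 26.1 in KO cells. Without the filter 7 of 40 members were lower and 0 higher (2.53% and 1.05% of all genes), with a median difference over the 40 of -0.37. The WT sums over the 11 central members were 1.57, 9.45 and 12.2 FPKM and the KO sums 1.89, 2.4 and 3.96, so WT replicate 1 lay below all KO libraries and the other two WT libraries above them. Without WT replicate 1, 8 members were called. In the fit of the day 7 libraries alone 1 of the 7, Hoxa3, was called (adjusted p 0.031). Hoxb2 and Hoxb3 were lost without KO replicate 1 (0.237 and 0.116), KO replicate 3 (0.091 and 0.0643), WT replicate 2 (0.132 and 0.0771) or WT replicate 3 (0.175 and 0.0968), and Mira without any of KO replicates 2 and 3 and WT replicates 2 and 3 (0.0755, 0.0874, 0.0851 and 0.16). With a pseudocount of 0.1 Hoxb2 was not called (0.328).

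Markers of other germ layers moved with these differences. Endoderm markers summed to 73.9, 246 and 311 FPKM in WT and 2.69, 4.85 and 3.57 in KO day 7 libraries, with 4 of 4 tested markers lower in KO cells, the largest being Spink3 and Cer1 (-5.52 ± 0.74 and -4.70 ± 0.33). Primitive streak and mesoderm markers summed to 72.6, 167 and 172 in WT and 8.62, 7.17 and 11.1 in KO libraries, with 4 of 5 tested lower, T and Meox1 most (-5.26 ± 0.44 and -3.47 ± 0.56). Mesp1 and Msgn1 were listed at 0 in the KO libraries, and Afp in the WT libraries. In both lists WT replicate 1, which was lowest in Hoxa3, Hoxd3, Hoxb9 and Mira, was also the lowest WT library. Mesoderm and endoderm express Hox genes too, and the part of these cells in the Hox differences was not tested.

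**Figure D3:**
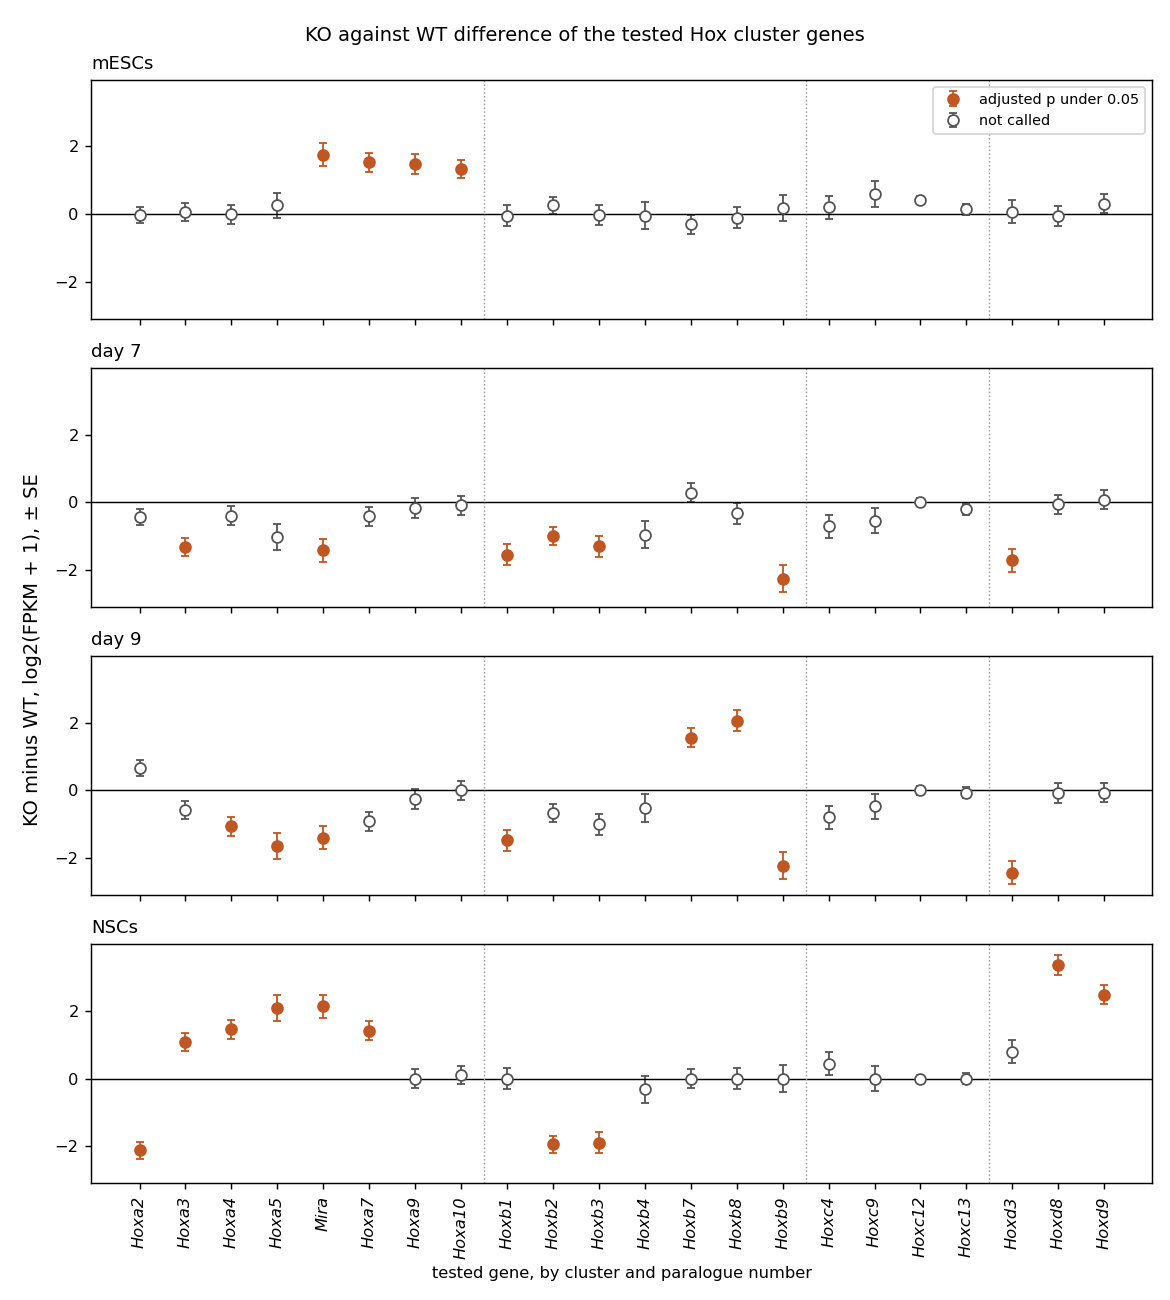
Difference between KO and WT cells on the log2(FPKM + 1) scale (points, with SE as bars) for the tested Hox cluster genes except 1, by cluster and paralogue number, at the 4 stages. Filled points are genes with a limma adjusted p under 0.05, which number 4, 7, 8 and 10 from top to bottom.

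At day 9 the Hoxb cluster was split in KO cells, with Hoxb7 and Hoxb8 higher and Hoxb1 and Hoxb9 lower. In all, 2 of 23 tested members were higher and 6 lower (2.58% and 4.11% of all tested genes, 38.6% of the calls being higher and 22.7% with every library scaled to the same sum). Hoxb8, a trunk and spinal cord gene, was 0.701, 3.3 and 3.14 FPKM in WT and 10.4, 10.4 and 16.2 in KO cells (2.06 ± 0.31, limma adjusted p 1.35e-04). Hoxb7 beside it was 0.803, 1.32 and 1.34 against 4.71, 4.11 and 7.65 (1.56 ± 0.28, adjusted p 9.21e-04). Hoxb9, the next gene on the posterior side, was 1.44, 6.6 and 6.72 in WT and 0, 0.422 and 0 in KO cells (-2.22 ± 0.39, adjusted p 7.31e-04). The groups did not overlap for any of the 3.

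On the other side of Hoxb7, Hoxb5 and Hoxb6 were listed at 0 in the 3 KO day 9 libraries, with 0.101, 1.86 and 1.48 FPKM and 0, 2.19 and 0.956 FPKM in WT cells. Both entered only the fit without the filter and were lower there (-0.99 ± 0.24 and -0.88 ± 0.24, adjusted p 0.0138 and 0.0305). Hoxb1 was 19.7, 25.6 and 26.2 FPKM in WT and 4.88, 10.8 and 9.22 in KO cells, with no overlap (-1.47 ± 0.31, adjusted p 0.00379). Hoxb2 and Hoxb3 were not called at day 9, at 85.7, 91.3 and 83.6 against 38.9, 67.3 and 61.4 FPKM and at 26.9, 33.1 and 28.8 against 9.58, 20 and 14.9, though no KO library reached the WT range.

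Hoxd3 had the largest fall at day 9, from 2.09, 6.56 and 8.53 FPKM in WT to 0, 0.325 and 0.072 in KO cells (-2.43 ± 0.34, adjusted p 6.13e-05). In the Hoxa cluster, Hoxa5, which patterns the neck and acts in the lung, was 0.716, 3.25 and 4.48 in WT and 0, 0.315 and 0 in KO cells (-1.64 ± 0.38, adjusted p 0.00955). Hoxa4 was 0.517, 1.45 and 2.15 against 0, 0.132 and 0.147 (-1.06 ± 0.28, adjusted p 0.0229), and Mira 1.15, 1.47 and 2.4 against 0 in all KO libraries (-1.39 ± 0.34, adjusted p 0.0142). The groups did not overlap for these 4. Hoxa2 was 57.2, 36.8 and 40.6 FPKM in WT and 59.6, 77.5 and 76.9 in KO cells and was not called.

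Without the filter 14 of 40 members were called at day 9, 2 higher and 12 lower (2.42% and 4.31% of all genes), and the median over the 40 was -0.47. The 6 added members were Hoxa6, Hoxb5, Hoxb6, Hoxc6, Hoxc8 and Hoxd4, all lower, and Hoxc6 the largest (0.616, 3.91 and 4.24 FPKM in WT and 0 in the KO libraries, -1.79 ± 0.35, adjusted p 0.00242). WT replicate 1 was again the lowest WT library for most central and posterior members, with posterior sums of 1.99 FPKM against 8 and 8.91 in the other WT libraries and 0.446 to 0.695 in KO cells. Without WT replicate 1, 10 members were called. Hoxa4 and Hoxa5 lost their calls without WT replicate 2 (adjusted p 0.103 and 0.0647) or WT replicate 3 (0.161 and 0.0815), Hoxa4 also without KO replicate 1, 2 or 3 (0.103, 0.0555 and 0.0549), and Mira without WT replicate 3 or KO replicate 1 (0.0898 and 0.0528). With a pseudocount of 0.1 Hoxb7 was not called (0.15).

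Among germ layer markers at day 9, endoderm sums were 55.6, 108 and 92.1 FPKM in WT and 12.8, 33 and 8.24 in KO libraries (1 of 4 tested lower, Foxa2 at -2.85 ± 0.40, with Spink3 next at -2.26 ± 0.74, not called) and mesoderm sums were 22.4, 57.5 and 41.8 against 13, 19.6 and 11.3 (2 of 5 lower, Meox1 and T at -2.25 ± 0.56 and -1.80 ± 0.44). Foxa2 (means 36.9 in WT and 5.23 in KO cells) and Spink3 (40.5 and 9.21) held most of the endoderm sums. Sox17 was 1.38 and 0.437, and Cer1 went the other way (1.67 and 2.79). Neural crest markers summed to 11 to 14.1 FPKM in WT and 34.2 to 55.3 in KO libraries (2 of 5 higher and 1 lower). Pax3, a dorsal neural and crest gene, and Tfap2a were higher (3.45 ± 0.36 and 1.85 ± 0.21). Most of the rise was that of Pax3, from 3.02 ± 3.37 FPKM in WT to 35.1 ± 8.53 in KO cells. Ets1 had means of 6.59 in WT and 3.25 in KO cells. Sox10 (1.16 and 1.08), Foxd3 (1.18 and 0.783) and Snai2 (0.549 and 0.47) did not rise. Postmitotic neuron markers summed to 562 to 605 in WT and 298 to 417 in KO libraries (2 of 5 lower, Elavl4 and Elavl3 being the largest pair). The part of these cells in the Hox differences was not tested.

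In NSCs Hoxa3, Hoxa4, Hoxa5, Mira, Hoxa7, Hoxd8 and Hoxd9 were higher and Hoxa2, Hoxb2 and Hoxb3 lower in KO cells. Of 23 tested members 7 were higher and 3 lower (2.54% and 3.48% of all tested genes, 42.2% of the calls being higher and 54.4% with every library scaled to the same sum). Hoxd8 and Hoxd9, genes of the trunk, had the largest differences. Hoxd8 was 0.155, 0 and 0 FPKM in WT and 7.36, 9.5 and 13.2 in KO NSCs (3.36 ± 0.29, limma adjusted p 2.47e-07). Hoxd9 was listed at 0 in the 3 WT libraries, where 3 reads would be 0.303 FPKM, and was 3.2, 4.83 and 5.94 in KO NSCs (2.47 ± 0.28, adjusted p 8.47e-06). The next posterior genes, Hoxd10 to Hoxd13, were listed at 0 in all 6 NSC libraries, and Hoxd3 and Hoxd4 had 0.555 to 0.852 and 0.397 to 2.36 FPKM in KO and 0 in WT NSCs.

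In the Hoxa cluster a run of genes from Hoxa3 to Hoxa7 was higher in KO NSCs, while Hoxa2 was lower. Hoxa5 was 3.06, 1.6 and 0.949 FPKM in WT and 9.37, 12.5 and 10 in KO NSCs (2.08 ± 0.38, adjusted p 0.00173), and it was the highest Hox gene of KO NSCs. Mira was 0, 0.3 and 0.593 against 2.11, 5.65 and 7.51 (2.14 ± 0.34, adjusted p 4.61e-04), and Hoxa7 0.109, 0 and 0 against 0.598, 2.25 and 2.97 (1.41 ± 0.28, adjusted p 0.00332). Hoxa4 was 3.58, 1.35 and 1.2 against 6.63, 6.49 and 7.56 (1.46 ± 0.28, adjusted p 0.00239) and Hoxa3 6.9, 2.59 and 3.09 against 7.51, 10.7 and 10.3 (1.09 ± 0.27, adjusted p 0.0157). The groups did not overlap for any of the 5.

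Hoxa6, within that run, was 0.421, 0.754 and 0.721 FPKM in KO and 0 in WT NSCs, and it was called in the fit without the filter (0.70 ± 0.17, adjusted p 0.0181). With it 8 of 40 members were higher and 3 lower (2.23% and 2.6% of all genes), with a median over the 40 of 0.00. Hoxa9 was listed at 0 in all 6 NSC libraries, and Hoxa10 did not pass 0.382 FPKM, so the run stopped at Hoxa7. In KO mESCs the run of higher genes had started at Mira and Hoxa7 and went to Hoxa10, or to Hoxa11 in the fit without the filter. Mira and Hoxa7 were thus the members higher in KO cells at both stages.

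The 3 genes that were lower in KO NSCs, Hoxa2, Hoxb2 and Hoxb3, are hindbrain genes. Hoxa2 was 19.7, 22 and 24.5 FPKM in WT and 5.23, 5.7 and 2.54 in KO NSCs (-2.12 ± 0.24, adjusted p 1.01e-05). Hoxb2 was 10.8, 8.89 and 12.7 against 1.76, 3.8 and 1.13 (-1.94 ± 0.26, adjusted p 7.02e-05), and Hoxb3 7.71, 9.1 and 7.15 against 1.41, 2.23 and 0.806 (-1.89 ± 0.30, adjusted p 4.57e-04). The groups did not overlap for any of the 3. Hoxb1 was listed at 0 in all 6 NSC libraries, as were Hoxb5 to Hoxb9.

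In the fit of the NSC libraries alone Hoxa2, Hoxa5, Hoxb3, Hoxd8 and Hoxd9 kept their calls, while Hoxa3 (adjusted p 0.241), Hoxa4 (0.123), Hoxa7 (0.157), Mira (0.091) and Hoxb2 (0.0691) did not, and a pseudocount of 0.1 ended the calls of Hoxa3, Hoxa4 and Hoxa5 (0.136, 0.181 and 0.102). Hoxa3 was also lost without WT replicate 2 or 3 or KO replicate 2 or 3 (0.0753, 0.0769, 0.0701 and 0.0716). The NSC markers were present in both genotypes, with sums of 5468 to 6920 FPKM in WT and 3866 to 4719 in KO libraries, and 2 of 6, Vim and Sox2, were lower in KO cells (-0.55 ± 0.16 and -0.49 ± 0.13). Endoderm markers summed to at most 0.226 FPKM in WT and 4 in KO NSCs, pluripotency markers to at most 12.6 and 9.99, and mesoderm markers to 8.99 to 29 and 7.8 to 13.3, with 0 called by limma in each list (1 of 4, 0 of 6 and 2 of 5 tested at an unadjusted p under 0.05). Pdgfra made up most of the mesoderm sums (means 17.7 in WT and 8.76 in KO NSCs). Klf4 made up most of the pluripotency sums (8.23 and 6.45). T, Meox1, Mesp1 and Pou5f1 were at most 0.5 FPKM on average in either genotype. Of the neural crest markers Tfap2a was higher (5.6 ± 1.53 FPKM in KO, 0.455 ± 0.105 in WT) and Sox10 lower in KO NSCs (0.607 ± 0.284 and 5.56 ± 4.33), and their part in the Hox differences was not tested.

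**Figure D4:**
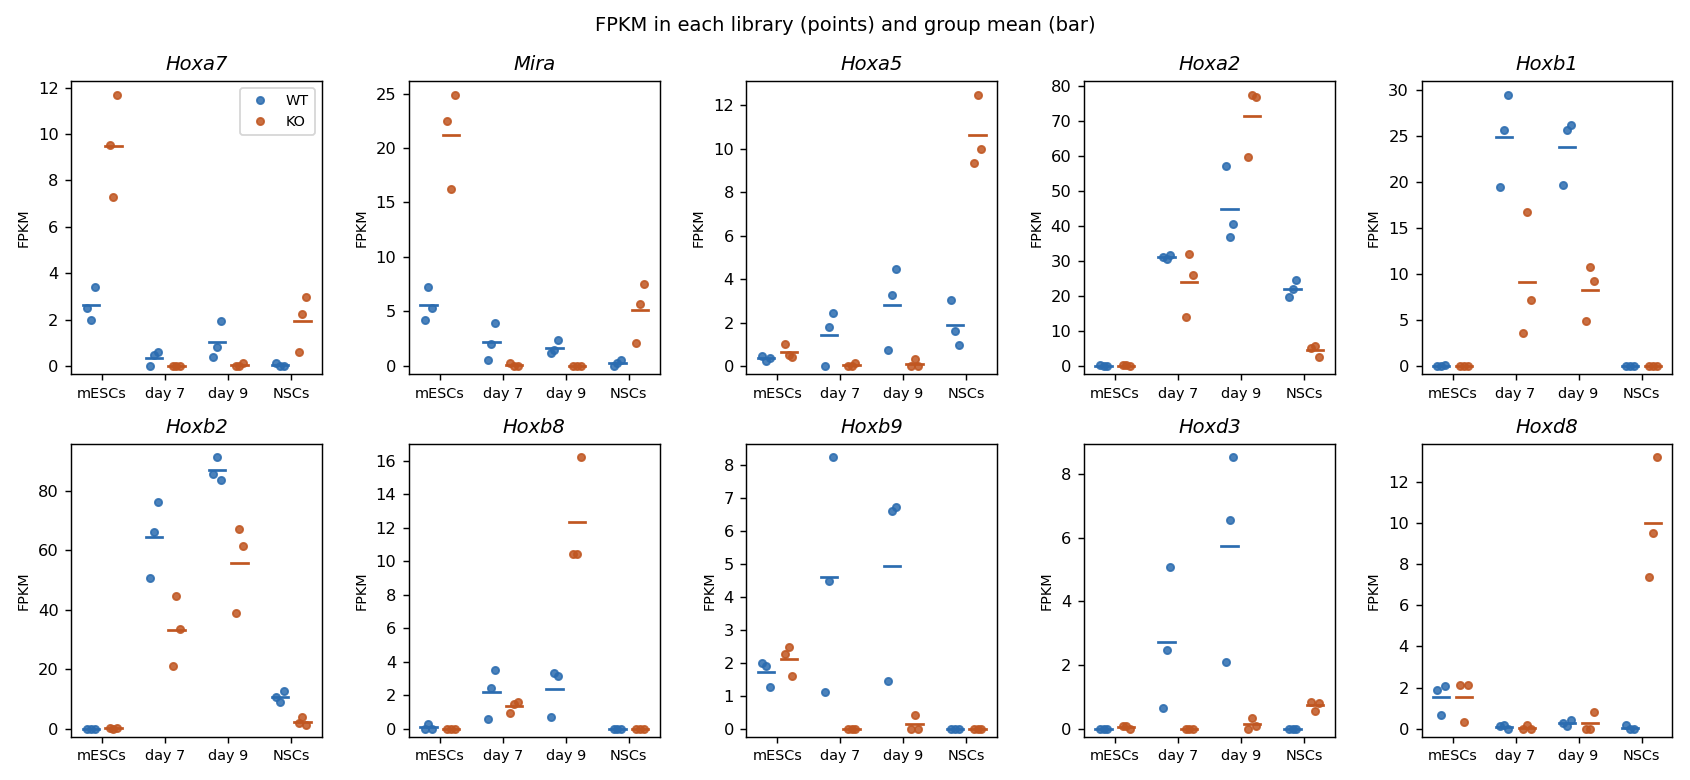
FPKM of 10 Hox cluster genes in each library (points, with the group mean as a bar) at the 4 stages, WT in blue and KO in orange, each panel with its own axis. Hoxa7 and Mira are highest in KO mESCs, Hoxb1, Hoxb9 and Hoxd3 are lower in KO cells at day 7 and day 9, Hoxb8 is highest in KO day 9 cells, and Hoxa5 and Hoxd8 in KO NSCs.

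The KO effect itself differed between stages for several members, tested as the KO effect in a differentiated stage minus that in mESCs. At day 7 the difference was called for 4 members, all lower (1.02% of all tested genes lower and 0.661% higher), at day 9 for 7, of which 2 were higher and 5 lower (1.32% and 1.35%), and in NSCs it was called for 5, with 2 higher and 3 lower (1.14% and 1.12%). Without the filter the counts over all 40 members were 0 higher and 6 lower at day 7 (0.655% and 0.942% of all genes), 2 and 10 at day 9 (1.38% and 1.58%), and 2 and 5 in NSCs (1.18% and 0.903%). The day 7 count was 2 in the fit of the compared libraries alone and 2 without WT mESC replicate 3, KO mESC replicate 1, WT day 7 replicate 2 or 3, or KO day 7 replicate 1 or 3, and 7 without WT day 7 replicate 1. The NSC count was 8 without WT NSC replicate 1. Mira went from higher in KO mESCs to lower at day 7 and day 9 (interaction -3.17 ± 0.49 and -3.15 ± 0.49, limma adjusted p 0.00120 and 4.64e-04). Hoxa7 and Hoxa9 also had lower KO effects at both days, but neither was itself called between KO and WT cells there, and their values were at most 1.94 FPKM in every library of these days. In NSCs the largest interactions were those of Hoxd8 (3.42 ± 0.41) and Hoxb2 (-2.21 ± 0.37). Same-numbered WT and KO libraries deviated together in mESCs and NSCs but not at day 7 or day 9. With a replicate block 8 members had a called interaction in NSCs, 3 higher and 5 lower, and 9 had one at day 7, all lower.

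The genes around the clusters were looked at to see whether the differences extended past them. Of 24 flanking genes, the 3 nearest entries on each side of each cluster, 13 were tested, and 0 were called between KO and WT cells by limma at any of the 4 stages, with largest absolute differences of 0.38 (mESCs), 0.43 (day 7), 0.42 (day 9) and 0.36 (NSCs) and 1, 1, 2 and 2 of the 13 at an unadjusted p under 0.05. Evx1 and Evx2, homeobox genes at the posterior ends of Hoxa and Hoxd, were not tested, since their means were under 1 FPKM. None of the entries beyond Hoxa13 was tested, so the 0 calls do not cover that side of Hoxa. Evx1 was 1.23 ± 1.04 FPKM in WT and 0.363 ± 0.228 in KO cells at day 9, and 0.79 and 1.08 in mESCs. The entry 5730457N03Rik at the same locus was 0.81 ± 0.467 in WT and 0.153 ± 0.207 in KO cells at day 9. Among 10 entries inside the clusters, 6, all of them microRNA genes, were listed at 0 in every library. Gm53, between Hoxb13 and Hoxb9, was 9.54 ± 2.51 FPKM in WT and 8.9 ± 2.33 in KO mESCs, at most 0.141 on average in the day 7, day 9 and NSC groups, and not called at any stage. Hoxa3, Hoxa4, Hoxa5 and Hoxa6 share a locus with the antisense entry 2700086A05Rik, which was 4.9 ± 4.14 FPKM in WT day 7 and 0 in KO day 7 cells, and Hoxd3 and Hoxd4 share another, so reads of overlapping transcripts could have been counted for either.

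HOX proteins bind DNA with PBX, MEIS and PKNOX cofactors, whose 9 genes were all tested. In mESCs 0 were called by limma (3 at an unadjusted p under 0.05), the largest differences being those of Meis2 and Meis3 (-0.47 ± 0.21 and -0.32 ± 0.15). At day 7, 2 were lower in KO cells, Meis1 (34.4 ± 2.9 FPKM in WT, 20.1 ± 6.35 in KO, -0.79 ± 0.19) and Pknox1 (-0.51 ± 0.12). At day 9, 1 was lower (Pknox2, -0.57 ± 0.17, limma adjusted p 0.0494), and Pbx4 had the next largest difference (-0.29 ± 0.23). In NSCs 2 were lower, Meis2 (26 ± 10.5 FPKM in WT, 7.99 ± 1.5 in KO, -1.52 ± 0.21, adjusted p 7.51e-05) and Meis1 (42.5 ± 9.9 and 22.4 ± 5.22, -0.89 ± 0.19). None of the 9 was called higher in KO cells by limma at any stage.

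Among 17 posterior and retinoid regulators, 15 tested, 4 were lower in KO cells at day 7, T (103 ± 43.9 FPKM in WT, 1.59 ± 0.755 in KO), Cdx2 (5.13 ± 0.89 and 0.221 ± 0.191, -2.33 ± 0.20), Aldh1a2, which makes retinoic acid (9.91 ± 6.79 and 0.839 ± 0.0595), and Cyp26b1, which degrades it (15.9 ± 1.92 and 3.68 ± 0.935). At day 9, 3 were lower (T, Aldh1a2 and the retinoic acid receptor gene Rarb) and 1 higher (Cyp26c1, 23.2 ± 13.5 in WT and 74.1 ± 7.6 in KO cells). In NSCs Cyp26b1 was lower (2.89 ± 1.30 and 0.556 ± 0.302) and Fgf8 came next without a call (0.52 ± 0.34). Cdx4 lies on the X chromosome, whose reads had been removed, so its level was not measured. Cdx2 was not called at day 9 (0.332 ± 0.141 in WT and 0.187 ± 0.158 in KO cells).

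Genes of the regions around the Hox domain were compared as well. Of 9 forebrain and midbrain factors that lie in front of it, 6 were tested, and 5 were higher in KO cells at day 7 and 5 at day 9, with summed levels of 27.4 to 28.5 FPKM in WT and 78.5 to 115 in KO cells at day 7 and of 12.1 to 19 and 36.7 to 52.1 at day 9. Lhx2 and Emx2 led at day 7 (1.97 ± 0.30 and 1.83 ± 0.24) and Emx2 and Fezf2 at day 9 (2.01 ± 0.24 and 1.73 ± 0.19). Hesx1, also tested, was lower without a call, at means of 2.73 FPKM in WT and 1.07 in KO cells at day 7. By day 9 it was 1.13 and 0.452. Of those not tested, Six3 was lower at day 7 (1.11 and 0.457). Otx1 and Rax were higher there (0.25 and 2.62, and 0.281 and 0.433). Otx2 was the largest part of the sums (15 and 54.9 at day 7, 8.52 and 23.7 at day 9). In NSCs Emx2 alone was called (1.42 ± 0.24, higher). In mESCs 0 of 6 were called by limma (0 at an unadjusted p under 0.05), with Otx2 at 0.36 ± 0.27 and Hesx1 at -0.32 ± 0.28. The neurectoderm markers were present at both days, with sums of 75 to 101 FPKM in WT and 128 to 142 in KO cells at day 7, where 1 of 5 tested was higher (Sox1, 0.72 ± 0.19) and Hes5 had the largest difference without a call (1.00 ± 0.56, limma adjusted p 0.489). At day 9 their sums were 136 to 201 in WT and 175 to 218 in KO cells, with Pax6 and Sox1 higher (0.83 ± 0.24 and 0.74 ± 0.19) and Ncam1 lower (-0.95 ± 0.16). Of 6 neural stem cell markers, Olig2 and Vim were lower in KO cells at day 7 (-1.39 ± 0.31 and -0.71 ± 0.16) and Olig2 at day 9 (-1.29 ± 0.31), with sums of 412 to 467 FPKM in WT and 331 to 428 in KO cells at day 7 and of 1416 to 1720 and 1681 to 1924 at day 9. The part of these markers in the Hox differences was not tested.

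Of 12 hindbrain segment and midbrain-hindbrain regulators, 11 were tested. At day 7, 3 were higher, with the midbrain-hindbrain genes En1 and Wnt1 leading (3.26 ± 0.38 and 3.00 ± 0.34), and 2 lower. At day 9, 3 were higher and 4 lower, with the cranial motor neuron genes Isl1 (29.3 ± 6.68 FPKM in WT, 1.27 ± 1.17 in KO, -3.84 ± 0.25) and Tbx20 (-2.88 ± 0.22) leading. In NSCs 1 was lower (Gbx2, -1.10 ± 0.29, with Egr2 next at 0.80 ± 0.47), and in mESCs 0 were called by limma (1 at an unadjusted p under 0.05), with Gbx2 at 0.97 ± 0.29 and En1 at 0.51 ± 0.38. Of 19 Polycomb and trithorax genes, 18 were tested and 0 were called by limma at any stage, with differences from -0.45 (Pcgf2 in NSCs) to 0.44 (Jarid2 at day 9) on the log2(FPKM + 1) scale and 1, 1, 3 and 2 of them at an unadjusted p under 0.05 in mESCs, day 7, day 9 and NSCs.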

How the data were processed

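Poly(A) RNA of JB4/EI7HZ2 cells was sequenced by the authors as stranded libraries with single-end reads, 24 libraries in 8 groups of 3. The deposited FPKM values were made by the authors with Trim Galore 0.6.6, TopHat2 2.1.1 on mm9, removal of ribosomal RNA and X chromosome reads, and Cuffdiff. The library normalization, read totals and whether reads were counted by strand are not given in the sources used here. The table has 36 FPKM columns, and 12, of other samples, were not used.

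From these values limma 3.58.1 (statmod 1.5.0, R 4.3.3) was run on log2(FPKM + 1), with all 8 groups in 1 fit without intercept, moderated two-sided tests (robust, with a mean trend) and Benjamini-Hochberg adjustment over 12105 genes outside X and Y with a mean of at least 1 FPKM and no failed estimate. All groups share 1 estimate of the spread, which is too small for a gene expressed in few groups, so fits of the compared libraries alone are given where they end a call. The script was tested on simulated data. Differences on the log2(FPKM + 1) scale understate changes of low genes. An exact permutation test of 3 against 3 libraries cannot go below a p of 0.1, so none was run. Same-numbered WT and KO libraries, paired by the replicate numbers of the labels, deviated together in mESCs (correlations 0.29, 0.44 and 0.14) and NSCs (0.34, 0.18 and 0.24), not at day 7 or day 9.

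Members, gene lists and the rule for named genes were chosen with earlier results of these data known. Named in full are members called between KO and WT cells, the highest member of each cluster at each stage, the 2 largest called changes in each direction between stages and the 2 largest changes of each gene list other than the cell type markers, which are given by counts, sums and examples. Windows before gene starts came from RefSeq (GRCm38.p6) and were located in mm9 (Python 3.11.15).

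Alternatives were a pseudocount of 0.1, no filter, the compared libraries alone, a replicate block, scaling every library to the same sum of FPKM, tests without trend and robust settings, and leaving out each library. Values of 1 member are not reported here singly, and it is left out of the plots of single genes.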

Additional observations from a re-analysis of the deposited data

Results flagged for a closer look

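The results here are differences of the KO effect between stages, each the KO minus WT difference of a differentiated stage minus that of mESCs, on the log2(FPKM + 1) scale with limma adjusted p-values over all tested genes. The 3 sets share the mESC libraries, so they are not independent of each other.

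In day 7 cells the KO effect was lower than in mESCs for Mira (-3.17 ± 0.49, SE, adjusted p 0.0012), Hoxb9 (-2.44 ± 0.55, 0.0225), Hoxa7 (-1.94 ± 0.40, 0.0106) and Hoxa9 (-1.67 ± 0.41, 0.0397). Leaving out 1 library gave 2 to 7 such members. Mira was called in opposite directions at the 2 stages. Hoxa7 and Hoxa9 were called in mESCs and Hoxb9 in day 7 cells alone.

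In day 9 cells it was lower for Mira (-3.15 ± 0.49, adjusted p 4.64e-04), Hoxd3 (-2.50 ± 0.49, 0.00429), Hoxa7 (-2.44 ± 0.40, 8.19e-04), Hoxb9 (-2.41 ± 0.55, 0.0181) and Hoxa9 (-1.74 ± 0.41, 0.0218). It was higher for Hoxb8 (2.17 ± 0.44, 0.00655) and Hoxb7 (1.85 ± 0.40, 0.0113), trunk genes that lie side by side.

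In NSCs it was higher for Hoxd8 (3.42 ± 0.41, adjusted p 7.73e-05) and Hoxd9 (2.16 ± 0.40, 0.00508), and lower for the hindbrain genes Hoxb2 (-2.21 ± 0.37, 0.00223), Hoxa2 (-2.09 ± 0.35, 0.00196) and Hoxb3 (-1.86 ± 0.43, 0.0247). In mESCs these 3 genes were at most 0.389 FPKM in every library of either genotype.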

How the results depend on the processing

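Of the 29 named KO against WT differences, each under 12 alternatives, 286 of 348 values were still called, 62 were not and 0 reversed. In the fit of the compared libraries alone, 0 members were called in mESCs (4 in the fit of all groups), 1 at day 7 (7) and 6 in NSCs (10, of which 5 were among the 6), and 2 differences of the KO effect at day 7 (4). With a pseudocount of 0.1, 0 members were called in mESCs and 4 of 7 differences of the KO effect at day 9. Without the filter, which tests 40 members instead of 23, 7 were called in mESCs and 14 at day 9, 12 differences of the KO effect at day 9, and, against mESCs, 31 in WT day 9, 28 in KO day 7, 31 in KO day 9 and 29 in KO NSCs. With the replicate block, 9 differences of the KO effect were called at day 7 and 8 in NSCs, and no count of KO against WT calls moved by over 1.5 times. Leaving out 1 library gave 0 to 4 calls in mESCs (fewest without KO replicate 3), 4 to 8 at day 7 (4 without WT replicate 2, WT replicate 3 or KO replicate 3), 5 to 10 at day 9 (fewest without WT replicate 3), 9 to 10 in NSCs, and for differences of the KO effect 2 to 7 at day 7, 5 to 8 at day 9 and 4 to 8 in NSCs. In all, 143 of 174 counts stayed within 1.5 times, and the cause of the other changes was not tested. Values near 1 FPKM rest on few reads, and 1 line per genotype limits every KO against WT difference.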
